A study of Mus musculus with 16 samples.

Results

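Growth factors, chemokines and the receptors that read them were followed in protrusions and cell bodies of mouse fibroblasts. These RNAs were picked by their symbols, with earlier results of these data known. The symbols of FGF, PDGF, VEGF, BMP, TGF-β, GDF and Wnt ligands, of CC and CXC chemokines, of endothelin 1, of the FGF, PDGF, BMP, TGF-β, Frizzled and IGF receptors and of the IGF binding proteins gave 61 of the 12900 RNAs of the table. The names also took in 5 RNAs that encode neither a growth factor nor a receptor: Bmp1, a secreted metalloprotease, Bmp2k, a kinase, Tgfbrap1, a receptor-associated trafficking protein, and Fgfr1op and Fgfr1op2, named after fusion partners of FGFR1. Of the other 56, 20 encode receptors, receptor-like proteins included, 21 encode ligands other than chemokines, 11 encode chemokines, 3 encode IGF binding proteins and 1, Fgf11, encodes an FGF homologue that stays inside the cell. All 61 were kept, and 47 of them had a mean log2 CPM above 1.

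A growth factor or chemokine is secreted by one cell and bound by a receptor in the membrane of the same or another cell. Receptor tyrosine kinases (the FGF, PDGF, VEGF and IGF receptors), the serine/threonine kinase receptors of the TGF-β family, the Frizzled receptors for Wnt proteins and the chemokine receptors each start a separate signalling cascade. In fibroblasts these cascades drive proliferation, matrix production and directed migration, with PDGF as a classical chemoattractant. Ligands and membrane receptors alike are made on ribosomes bound to the endoplasmic reticulum.

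The cells were NIH/3T3, an established mouse fibroblast line, carrying a doxycycline-inducible human β-globin coding sequence followed by the 3′UTR of β-globin itself (HBB, the control line) or of Pkp4 (Pkp4 cUTR line). Both lines received doxycycline at 1 µg/ml for 3 days, were starved of serum, sat for 2 h on filters with pores of 3 µm, met lysophosphatidic acid (LPA) from below for 1 h and were fixed for 10 min in 0.3% paraformaldehyde. Protrusions (Ps), which extend through the pores, and cell bodies (CB), which stay on top, were scraped off separately, giving 4 groups of 4 samples. Each construct was studied in 1 stably transduced line, so an effect of the 3′UTR cannot be told apart from another difference between the lines. The paper describes 4 independent replicates per group, from replicate experiments. The labels do not say that replicates came from separate cultures, and where they did not, the p-values measure technical spread only.

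Depth ran from 18660287 to 31260831 reads per sample, so that 3 reads, taken as the floor, amounted to 0.0890 to 0.176 reads per 1000000 (CPM). The markers of fibroblasts with a value, 9 of 10, summed to 19301 to 22585 CPM in protrusions and 25969 to 31550 CPM in cell bodies. Markers of other cell types were low beside these sums. The endothelial markers with a value, Pecam1 and Cdh5 (2 of 3), summed to at most 1.87 CPM. The macrophage marker Cd68, the 1 of 4 immune markers with a value, reached at most 6.67 CPM. The epithelial markers with a value, Cdh1 and Krt8 (2 of 5), summed to 10.6 to 20.3 CPM. RNA counted to Pkp4, whose 3′UTR the construct carries, was higher in the Pkp4 cUTR line by 4.44 (log2) in cell bodies and 3.32 in protrusions. Construct RNA and RNA of the endogenous gene cannot be told apart in this value. The cell bodies numbered 4 of both lines stood apart from the other cell bodies in an earlier account of these data, and counts without them are given below.

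Levels spanned more than 4 orders of magnitude, here as CPM per kilobase of the longest annotated transcript in HBB cell bodies (mean ± SD, n = 4). Igfbp6, which binds IGF-II in preference to IGF-I, stood at 2047 ± 148 and Igfbp4 at 329 ± 35.1, above every ligand and receptor. The highest ligands were the monocyte-attracting chemokines Ccl7, at 125 ± 11.6, and Ccl2, at 119 ± 8.32, and these neighbours in the order overlapped within their SD. Among receptors Fgfr1 (71.4 ± 7.22) and Pdgfrb (70.7 ± 4.26) were level with each other within their SD. Tgfb1 stood at 65.1 ± 1.28 and Vegfb at 58.1 ± 7.51. Vegfa, the principal angiogenic ligand, stood at 36.2 ± 5.91, Fzd2 at 34 ± 0.939, Tgfbr2 at 20 ± 2.73 and Igf1r at 4.64 ± 0.547. Wnt9a, at 3.76 ± 0.253, was the highest of the 7 Wnt ligands, and Wnt4 the lowest of all 61, at 0.0861 ± 0.0228. No symbol of an IGF ligand or an endothelin receptor was among the 12900 RNAs of the table.

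The first question was which of these RNAs are enriched in protrusions, measured as log2(FC) of Ps over CB with its standard error and tested by limma with Benjamini-Hochberg adjustment over all 12900 RNAs. Most receptor RNAs lay lower in protrusions, and a few RNAs, Gdf11 ahead of all others, lay higher. In the HBB line 8 of the 61 RNAs, or 13.1%, were higher in protrusions (28.3% of all RNAs were) and 28, or 45.9%, were lower (28.9% of all RNAs were). In the Pkp4 cUTR line 13, or 21.3%, were higher (against 28.2% of all RNAs) and 30, or 49.2%, were lower (against 28.5%). The median log2(FC) of the 61 was -0.26 in the HBB line and -0.32 in the Pkp4 cUTR line, beside 0.01 in each line for all RNAs. The same 8 RNAs were higher in both lines (24.1% of all RNAs were) and the same 26 lower in both (25.3% of all RNAs were).

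Scaling bears on these counts, because the authors' factors were 0.828 to 0.974 in protrusions and 1.07 to 1.11 in cell bodies. With plain library totals the median log2(FC) of all RNAs went from 0.01 to -0.23 in the HBB line and to -0.25 in the Pkp4 cUTR line. Then 2 of the 61 RNAs were higher and 36 lower in the HBB line (1940 and 5614 of all 12900 RNAs). In the Pkp4 cUTR line 5 were higher and 36 lower (1797 and 5867 of 12900). Without the cell bodies numbered 4, 9 were higher and 30 lower in the HBB line (3790 and 3983 of 12900). In the Pkp4 cUTR line 11 were then higher and 29 lower (3993 and 3971 of 12900).

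Fewer RNAs passed the threshold of the study, more than 2-fold either way at an unadjusted p under 0.05. Gdf11 was the 1 RNA above it in the HBB line (1.64% of the 61, against 4.54% of all RNAs). Fzd7, Fzd5, Gdf5, Tgfbr3l, Bmp1 and Pdgfrb were the 6 below its inverse (9.84% of the 61, against 4.00%). Pkp4 cUTR protrusions had Gdf11 and Ccl5 as the 2 above it (3.28% of the 61, against 5.07% of all RNAs). There Fzd7, Fzd5, Fzd1, Tgfbr3l and Edn1 were the 5 below its inverse (8.20% of the 61, against 2.92%). Bmp1, at -1.0 in the HBB line, and Edn1, at -1.01 in the Pkp4 cUTR line, lay just past this threshold, and Vegfa, at -0.98 in the HBB line, just short of it.

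**Figure D1:**
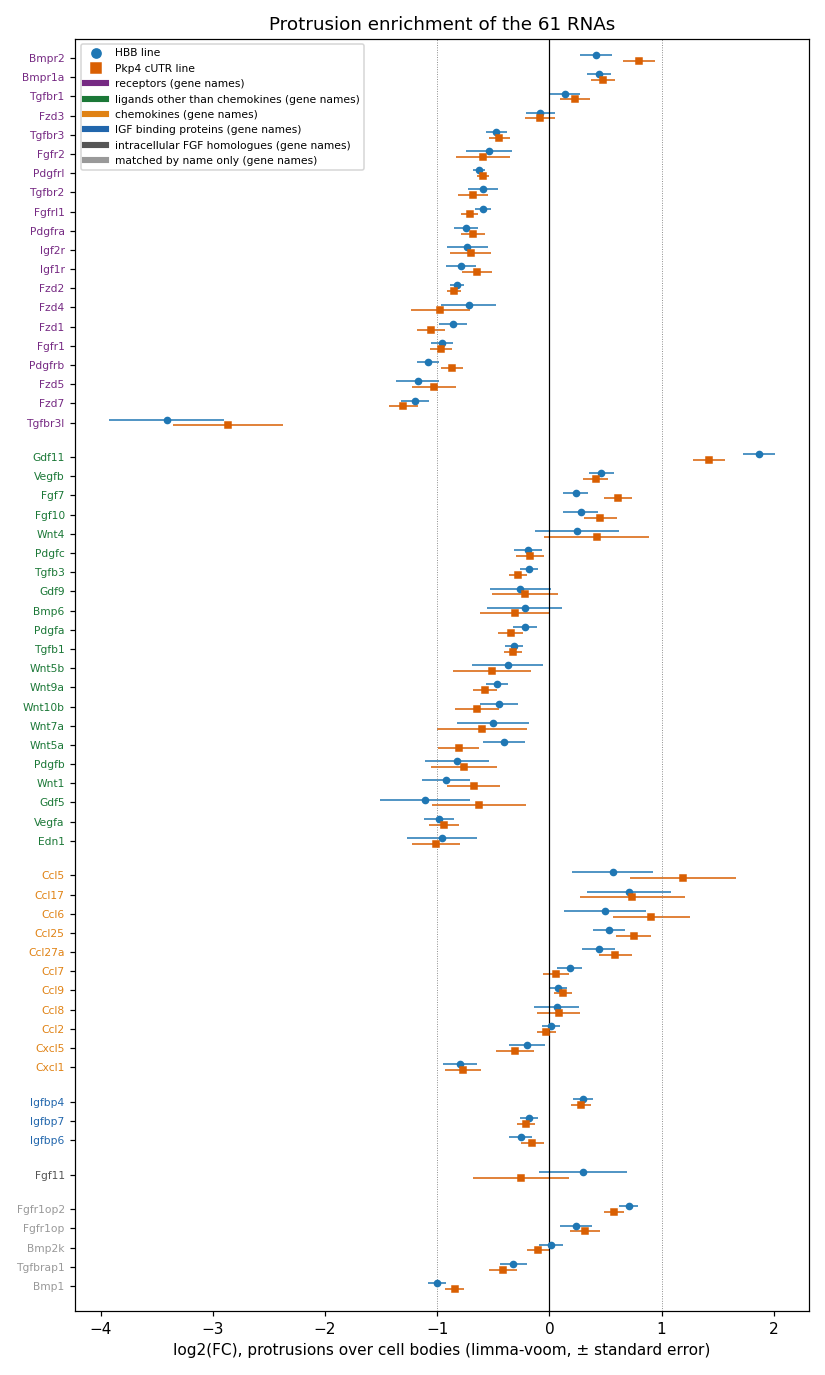
The log2(FC) of protrusions over cell bodies (x axis, with standard errors from limma-voom) is drawn for each of the 61 RNAs (rows, ordered within each class by the mean of the lines), with circles for the HBB line and squares for the Pkp4 cUTR line and dotted lines at 2-fold. Of the 20 receptor RNAs at the top, 16 were lower in protrusions of both lines, whereas the ligands and chemokines below spread to both sides of 0 and Gdf11 stands at the far right.

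Receptor RNAs lay mostly lower in protrusions. Of 20 RNAs 16 were lower in protrusions of both lines and 2, Bmpr1a and Bmpr2, were higher in both, with a median log2(FC) of -0.72 in the HBB line and -0.69 in the Pkp4 cUTR line. The exceptions on neither side were Fzd3 (-0.08 ± 0.13 and -0.09 ± 0.13) and Tgfbr1 (0.14 ± 0.13 and 0.23 ± 0.13). Of all RNAs 25.3% were lower and 24.1% higher in both. With library totals Fzd3 was also lower in both lines, Bmpr1a was no longer higher in either and Bmpr2 was no longer higher in the HBB line.

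All 3 FGF receptor RNAs were lower in protrusions of both lines (25.3% of all RNAs were). Fgfr1, the main FGF receptor of mesenchymal cells (chr8:25513654-25575718, plus strand, GRCm38), had log2 CPM values of 7.47, 7.55, 7.44 and 7.65 in HBB protrusions and 8.43, 8.44, 8.69 and 8.39 in HBB cell bodies. The corresponding values of the Pkp4 cUTR line were 7.35, 7.22, 7.03 and 7.39 and 8.17, 8.36, 8.35 and 7.96. Every protrusion sample lay under every cell body sample of its line, and log2(FC) was -0.96 ± 0.10 (limma, adjusted p = 3.2e-07) and -0.96 ± 0.10 (adjusted p = 4.0e-07). Fgfrl1, a receptor-like protein without a kinase domain, stood at -0.59 ± 0.07 and -0.71 ± 0.08. Fgfr2 was close to the threshold at -0.54 ± 0.20 and -0.59 ± 0.24 (limma, adjusted p = 0.0316 and 0.0434), and other annotated genes lie within its span. Its HBB call ended without HBB protrusions 2 or 3 or HBB cell bodies 2 or 3 (limma, adjusted p = 0.0722 to 0.116), and its Pkp4 cUTR call without Pkp4 cUTR protrusions 1, 2 or 3 or Pkp4 cUTR cell bodies 1, 2 or 3 (adjusted p = 0.0637 to 0.13).

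The 3 PDGF receptor RNAs were lower in both lines as well (25.3% of all RNAs were). Pdgfrb, the β receptor that mediates fibroblast chemotaxis, stood at 7.56, 7.54, 7.30 and 7.58 in HBB protrusions against 8.59, 8.61, 8.66 and 8.46 in HBB cell bodies (log2 CPM). The Pkp4 cUTR line had it at 7.62, 7.48, 7.40 and 7.66 against 8.31, 8.51, 8.64 and 8.17. The fractions did not overlap in either line, and log2(FC) was -1.08 ± 0.10 (limma, adjusted p = 6.6e-08) and -0.87 ± 0.10 (adjusted p = 9.0e-07). Pdgfra, the α receptor, was lower by similar amounts, with log2(FC) of -0.74 ± 0.11 and -0.68 ± 0.11. Pdgfrl, a PDGF receptor-like protein, had the smallest errors of the 61 in both lines and stood at -0.63 ± 0.06 and -0.59 ± 0.06. The IGF receptors were lower, too: Igf1r, the signalling receptor for both IGFs, at -0.79 ± 0.13 and -0.65 ± 0.13, and Igf2r, which carries IGF-II and lysosomal enzymes to lysosomes, at -0.73 ± 0.18 and -0.70 ± 0.18. The span of Igf2r is shared with the antisense RNA Airn, which was higher in protrusions, at 0.95 and 1.01.

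Frizzled receptors, which bind Wnt proteins together with LRP co-receptors, had the lowest median of the families of at least 6 RNAs, -0.84 in the HBB line and -1.0 in the Pkp4 cUTR line. Of the 6, 5 were lower in both lines (25.3% of all RNAs were). Fzd7 (chr1:59482424-59486955, plus strand) had log2 CPM of 4.96, 5.19, 4.81 and 5.26 in HBB protrusions and 6.25, 6.32, 6.29 and 6.16 in HBB cell bodies. Its values in the Pkp4 cUTR line were 5.37, 5.32, 4.82 and 5.48 in protrusions and 6.54, 6.75, 6.65 and 6.28 in cell bodies. All protrusion samples lay below all cell body samples of their line, and log2(FC) was -1.20 ± 0.13 (limma, adjusted p = 5.0e-07) and -1.30 ± 0.13 (adjusted p = 2.6e-07). Fzd5 was as low in fold, -1.17 ± 0.19 and -1.03 ± 0.20, at a much lower level. Its values ran from 0.35 to 1.67 in HBB protrusions and from 2.08 to 2.42 in HBB cell bodies, and from 0.84 to 1.38 and 1.94 to 2.18 in the Pkp4 cUTR line, again without overlap. Fzd2, the Frizzled RNA of highest level per length, stood at -0.82 ± 0.07 and -0.85 ± 0.07, Fzd1 at -0.86 ± 0.12 and -1.06 ± 0.12, and Fzd4 at -0.72 ± 0.24 and -0.97 ± 0.26. The HBB call of Fzd4 ended without HBB protrusions 3 or 4 or HBB cell bodies 2 (limma, adjusted p = 0.0575 to 0.071). Fzd1, Fzd2 and Fzd7 are annotated with a single exon.

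TGF-β and BMP receptors were divided. Bmpr1a (chr14:34410734-34503341, minus strand), a type I BMP receptor, was higher in protrusions, with log2 CPM of 4.36, 4.55, 4.17 and 4.22 against 4.06, 4.01, 3.79 and 3.66 in cell bodies of the HBB line. In the Pkp4 cUTR line the values were 4.53, 4.54, 4.22 and 4.37 against 3.96, 3.97, 3.75 and 4.08. The fractions did not overlap, and log2(FC) was 0.44 ± 0.11 (limma, adjusted p = 0.0021) and 0.48 ± 0.11 (adjusted p = 0.0012), or with library totals an adjusted p of 0.186 and 0.173. Bmpr2, the type II BMP receptor that phosphorylates Bmpr1a, stood at 3.40, 3.77, 3.04 and 3.52 in HBB protrusions and 3.22, 3.00, 2.99 and 2.82 in HBB cell bodies, and these overlapped because the protrusions numbered 3 were low. In the Pkp4 cUTR line it stood at 3.38, 3.76, 3.75 and 3.71 in protrusions and 2.95, 2.67, 2.67 and 3.11 in cell bodies, without overlap. Log2(FC) of Bmpr2 was 0.42 ± 0.14 (limma, adjusted p = 0.0179, 0.0792 without HBB protrusion replicate 2 and 0.357 with library totals) and 0.80 ± 0.14 (adjusted p = 1.4e-04).

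The RNAs of 3 TGF-β receptors and relatives were lower in both lines (25.3% of all RNAs were). Tgfbr2, the type II receptor that binds TGF-β, stood at -0.59 ± 0.13 and -0.68 ± 0.13, and the co-receptor Tgfbr3 (betaglycan) at -0.47 ± 0.09 and -0.45 ± 0.09. The type I receptor Tgfbr1 passed the test in neither line. Tgfbr3l had the lowest log2(FC) of the 61, -3.41 ± 0.52 and -2.86 ± 0.49, from few reads. In HBB protrusions 2, 6, 3 and 2 reads fell on it, against 55, 49, 70 and 33 in HBB cell bodies. In the Pkp4 cUTR line it had 3, 2, 3 and 11 reads in protrusions and 46, 57, 65 and 18 in cell bodies. From the summed reads its level was 11.3-fold lower in HBB protrusions (95% exact interval 6.44 to 21.5) and 7.11-fold lower in Pkp4 cUTR protrusions (4.42 to 12.1), and these intervals cover counting error only. A read-through transcript of the same strand, Gm49320, shares its span.

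Ligands other than chemokines lay on both sides of 0. Of 21 RNAs 2, Gdf11 and Vegfb, were higher in protrusions of both lines (against 24.1% of all RNAs) and 7 were lower in both (against 25.3%), namely Tgfb1, Wnt9a, Wnt1, Wnt10b, Pdgfb, Vegfa and Edn1. Their median log2(FC) was -0.32 in the HBB line and -0.35 in the Pkp4 cUTR line.

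Gdf11, a TGF-β family ligand known for patterning the embryonic axis (chr10:128882295-128891718, minus strand), was the most enriched of the 61. Its log2 CPM was 4.34, 4.12, 4.91 and 4.45 in HBB protrusions and 2.68, 2.68, 2.64 and 2.25 in HBB cell bodies. The Pkp4 cUTR line gave 4.23, 4.08, 4.19 and 4.22 in protrusions and 2.86, 2.67, 2.90 and 2.57 in cell bodies. Every protrusion sample exceeded every cell body sample by more than 1, and log2(FC) was 1.87 ± 0.14 (limma, adjusted p = 1.4e-08) and 1.43 ± 0.14 (adjusted p = 3.6e-07). The other 5 ligands of its family had values below 0 in both lines. Tgfb1, the main fibrogenic TGF-β, stood at -0.32 ± 0.08 and -0.32 ± 0.08 and passed in both, Tgfb3 passed in the Pkp4 cUTR line (-0.18 ± 0.08 and -0.28 ± 0.08), and Gdf5 passed in the HBB line (-1.11 ± 0.40 and -0.63 ± 0.42) on 2 to 13 reads per sample, but not without HBB protrusion replicate 1 (limma, adjusted p = 0.107). Bmp6 and Gdf9 passed in neither.

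The VEGF ligands went opposite ways. Vegfb, which signals through VEGFR1, had log2 CPM of 6.60, 6.46, 6.93 and 6.69 in HBB protrusions and 6.07, 6.04, 6.32 and 6.41 in HBB cell bodies, and of 6.44, 6.38, 6.75 and 6.52 and 6.0, 5.93, 6.25 and 6.26 in those of the Pkp4 cUTR line. Vegfa had 5.73, 5.91, 5.96 and 6.27 in HBB protrusions and 6.88, 6.73, 7.27 and 6.92 in HBB cell bodies. Pkp4 cUTR values of Vegfa were 5.65, 5.78, 5.80 and 6.04 and 6.58, 6.63, 7.10 and 6.73. No fractions overlapped: Vegfb lay above and Vegfa below its cell body values in all samples of a line. Log2(FC) of Vegfb was 0.46 ± 0.11 (limma, adjusted p = 0.0018) and 0.41 ± 0.11 (adjusted p = 0.0047), and with library totals it passed in neither line (adjusted p = 0.0637 and 0.221). For Vegfa it was -0.98 ± 0.13 (limma, adjusted p = 6.1e-06) and -0.94 ± 0.13 (adjusted p = 1.2e-05). The PDGF ligands had values below 0: Pdgfb passed in both lines (-0.82 ± 0.29 and -0.76 ± 0.30), Pdgfa in the Pkp4 cUTR line (-0.22 ± 0.11 and -0.35 ± 0.11) and Pdgfc in neither. The calls of Pdgfb ended in the HBB line without HBB protrusions 1, 2 or 4 (limma, adjusted p = 0.055 to 0.071) and in the Pkp4 cUTR line without Pkp4 cUTR protrusions 3 or 4 or Pkp4 cUTR cell bodies 2 or 3 (adjusted p = 0.0628 to 0.146).

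Of the 7 Wnt ligands 3 were lower in protrusions of the HBB line (28.9% of all RNAs were) and none was higher (28.3% were). In the Pkp4 cUTR line the same 3 with Wnt5a were lower (28.5% of all RNAs were), and again none was higher (28.2% were). Wnt9a stood at -0.46 ± 0.10 and -0.58 ± 0.11, Wnt1 at -0.92 ± 0.21 and -0.68 ± 0.24, and Wnt10b at -0.45 ± 0.17 and -0.65 ± 0.20. The HBB call of Wnt10b ended without HBB protrusions 1 or 3 or HBB cell bodies 1 or 2 (limma, adjusted p = 0.0506 to 0.14), and the Pkp4 cUTR call of Wnt1 without Pkp4 cUTR protrusions 2 or 4 or Pkp4 cUTR cell bodies 2 (adjusted p = 0.051 to 0.0704). Wnt5a, a ligand of the β-catenin-independent branch, stood at -0.41 ± 0.19 and -0.81 ± 0.18. Wnt4, Wnt5b and Wnt7a had a mean log2 CPM below 0 and passed in neither line. The FGF ligands lay on the other side of 0. Fgf7, a stromal ligand for epithelial FGF receptors, stood at 0.24 ± 0.11 (limma, adjusted p = 0.0769) in the HBB line and 0.61 ± 0.12 (adjusted p = 4.0e-04) in the Pkp4 cUTR line, and Fgf10 at 0.28 ± 0.16 and 0.45 ± 0.15, passing in the Pkp4 cUTR line. With library totals neither passed there (limma, adjusted p = 0.0513 for Fgf7 and 0.327 for Fgf10), nor did Fgf10 without Pkp4 cUTR protrusion replicate 2 (adjusted p = 0.0506). Edn1, the precursor of the vasoconstrictor peptide endothelin 1, was lower in protrusions of both lines, at -0.96 ± 0.31 (limma, adjusted p = 0.0141, and 0.0574 without HBB protrusion replicate 3) and -1.01 ± 0.22 (adjusted p = 6.7e-04).

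**Figure D2:**
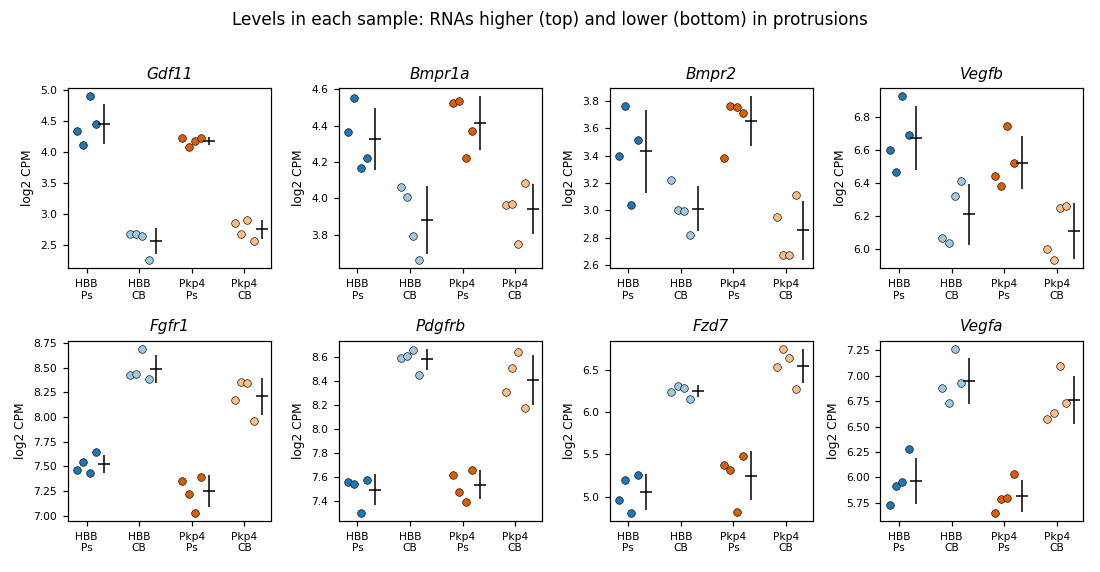
Log2 CPM (y axis, a separate scale in each panel) is plotted for every sample of the 4 groups (x axis, Ps for protrusions and CB for cell bodies) for 8 RNAs, with the mean ± SD of 4 samples beside the points. Gdf11, Bmpr1a and Vegfb (top) lie higher in protrusions of both lines without overlap and Bmpr2 overlaps in the HBB line, while Fgfr1, Pdgfrb, Fzd7 and Vegfa (bottom) lie lower without overlap.

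Chemokines, which steer leukocytes along gradients, had a median log2(FC) of 0.18 in the HBB line and 0.12 in the Pkp4 cUTR line, which turned to -0.06 and -0.14 with library totals. Of the 11, Ccl25 and Ccl27a were higher in protrusions of both lines (24.1% of all RNAs were) and Cxcl1 was lower in both (25.3% were). Ccl5 and Ccl6 were also higher in the Pkp4 cUTR line, which made 4 there (28.2% of all RNAs were). Ccl25 is a thymic and gut chemokine (chr8:4325210-4360020, plus strand) whose span overlaps Elavl1 on the opposite strand. It had log2 CPM of 2.14, 1.99, 2.02 and 1.86 in HBB protrusions and 1.47, 1.63, 1.39 and 1.40 in HBB cell bodies. Its Pkp4 cUTR values were 1.91, 1.96, 1.93 and 1.68 in protrusions and 1.36, 0.75, 0.88 and 1.52 in cell bodies, so the fractions overlapped in neither line. Log2(FC) was 0.53 ± 0.15 (limma, adjusted p = 0.0045) and 0.75 ± 0.16 (adjusted p = 5.6e-04), and with library totals the HBB value did not pass (adjusted p = 0.0926).

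Ccl27a, a skin-homing chemokine whose span overlaps Il11ra1 on the opposite strand, had log2 CPM of 3.36, 3.26, 3.61 and 3.19 in HBB protrusions and 2.92, 2.78, 2.84 and 3.16 in HBB cell bodies. The Pkp4 cUTR line gave 3.28, 3.40, 4.01 and 3.24 and 2.78, 2.89, 2.83 and 3.11, without overlap in either line and with the highest value in protrusion replicate 3 of each line. Its log2(FC) was 0.44 ± 0.15 (limma, adjusted p = 0.0165, 0.0627 without HBB protrusion replicate 3 and 0.187 with library totals) and 0.59 ± 0.15 (adjusted p = 0.0026). Cxcl1, a neutrophil attractant, stood at -0.80 ± 0.15 and -0.77 ± 0.16. Ccl5 rested on 2 to 19 reads per sample, and from the summed reads was 2.39-fold higher in Pkp4 cUTR protrusions (95% exact interval 1.32 to 4.45) and 1.5-fold higher in HBB protrusions (1.0 to 2.24). The Pkp4 cUTR call of Ccl5 ended without Pkp4 cUTR protrusions 1, 2 or 3 or Pkp4 cUTR cell bodies 1, 3 or 4 (limma, adjusted p = 0.0502 to 0.142) and with library totals (adjusted p = 0.0756). That of Ccl6 ended without Pkp4 cUTR protrusions 1, 2 or 4 or Pkp4 cUTR cell bodies 2, 3 or 4 (limma, adjusted p = 0.0535 to 0.0939) and with library totals (adjusted p = 0.144). The chemokines of highest level had values close to 0, Ccl2 at 0.02 ± 0.08 and -0.03 ± 0.08, Ccl7 at 0.18 ± 0.11 and 0.06 ± 0.12 and Ccl9 at 0.08 ± 0.08 and 0.12 ± 0.08. Without the cell bodies numbered 4, Ccl7 passed as higher in HBB protrusions (limma, adjusted p = 0.0274).

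The IGF binding proteins, secreted carriers that hold IGFs away from their receptor, differed among themselves. Igfbp4 was higher in protrusions of both lines (0.30 ± 0.09 and 0.28 ± 0.09). With library totals it passed in neither (limma, adjusted p = 0.492 and 0.868), and with quantile normalization its values turned to -0.17 and -0.19 (adjusted p = 0.128 and 0.0974). Igfbp7, a related protein that binds IGFs weakly, passed in the Pkp4 cUTR line (-0.18 ± 0.08 and -0.21 ± 0.08), and Igfbp6 passed in the HBB line (-0.26 ± 0.10 and -0.15 ± 0.10). The last call failed in 8 alternatives, with adjusted p from limma of 0.0507 to 0.109, among them leaving out HBB protrusions 2, 3 or 4 or HBB cell bodies 1 or 4. That of Igfbp7 failed in 6, with adjusted p from limma of 0.0507 to 0.157, among them leaving out Pkp4 cUTR protrusions 1 or 4 or Pkp4 cUTR cell bodies 1 or 2. Among the RNAs matched by name only, Fgfr1op2 was higher in both lines (0.71 ± 0.09 and 0.58 ± 0.09) and Bmp1, which cleaves procollagen, was lower (-1.0 ± 0.08 and -0.85 ± 0.08). Fgfr1op2 had log2 CPM of 5.98 to 6.13 in HBB protrusions and 5.28 to 5.43 in HBB cell bodies, and of 6.0 to 6.30 and 5.33 to 5.73 in those of the Pkp4 cUTR line, without overlap.

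Other RNAs moved with the fractions. Of 4 nuclear RNAs with a value, Malat1 (-1.85 and -1.27) and Neat1 (-1.48 and -1.21) were lower in protrusions. Kcnq1ot1 passed in neither line (-0.55 and -0.25) and Airn was higher in both (0.95 and 1.01), at mean log2 CPM of -0.52 and -0.83. RNAs for secreted matrix, such as Col1a1 (-1.26 and -1.17) and Fn1 (-1.25 and -1.11), were lower. The part of nuclear or matrix RNAs in the values of the receptors and ligands was not tested. A lower share of an RNA in these bulk fractions cannot be told apart from more of the other RNAs, nor fewer cells with an RNA from less of it per cell.

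Across the 61 RNAs the enrichments of the lines, which share no sample, had a Pearson's r of 0.956 and a Spearman's rho of 0.956, and 3 RNAs had opposite signs. This describes RNAs that are not independent replicates. Sample by sample, protrusions and cell bodies overlapped for 30 RNAs in the HBB line and for 29 in the Pkp4 cUTR line. In the HBB line 7 of the 61 lay wholly higher in protrusions (3285 of all 12900 RNAs, or 25.5%) and 24 of the 61 wholly lower (3453 of 12900, or 26.8%). In the Pkp4 cUTR line 10 of the 61 lay wholly higher (2916 of 12900, or 22.6%) and 22 of the 61 wholly lower (2866 of 12900, or 22.2%).

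Transcript length, which the choice of names did not use, differed between the classes. The median of the longest annotated transcripts (GENCODE vM21, GRCm38) was 5856 bases for the 20 receptors, 2944 for the 21 ligands, 841 for the 11 chemokines and 2873 for all other RNAs. Shorter RNAs were higher in protrusions across the table, with a Spearman's rho of enrichment with length of -0.32 in the HBB line and -0.28 in the Pkp4 cUTR line over 12765 RNAs, beside -0.25 and -0.27 over the 61. Set against the median of the other RNAs of similar length, in 6 bins, 43 of the 61 lay lower in the HBB line and 44 in the Pkp4 cUTR line. In the bin of up to 1000 bases, which held 7 chemokines, the median log2(FC) in the HBB line was 0.18 for these and 0.62 for the 1449 other RNAs. In the bin above 6000 bases, which held Bmpr2, Fzd3, Fzd4, Fzd5, Igf1r, Igf2r, Pdgfra, Tgfbr2, Tgfbr3, Wnt5a and Bmp2k, it was -0.59 for these and -0.12 for the 1516 other RNAs. The part of length in the differences between classes was not tested.

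**Figure D3:**
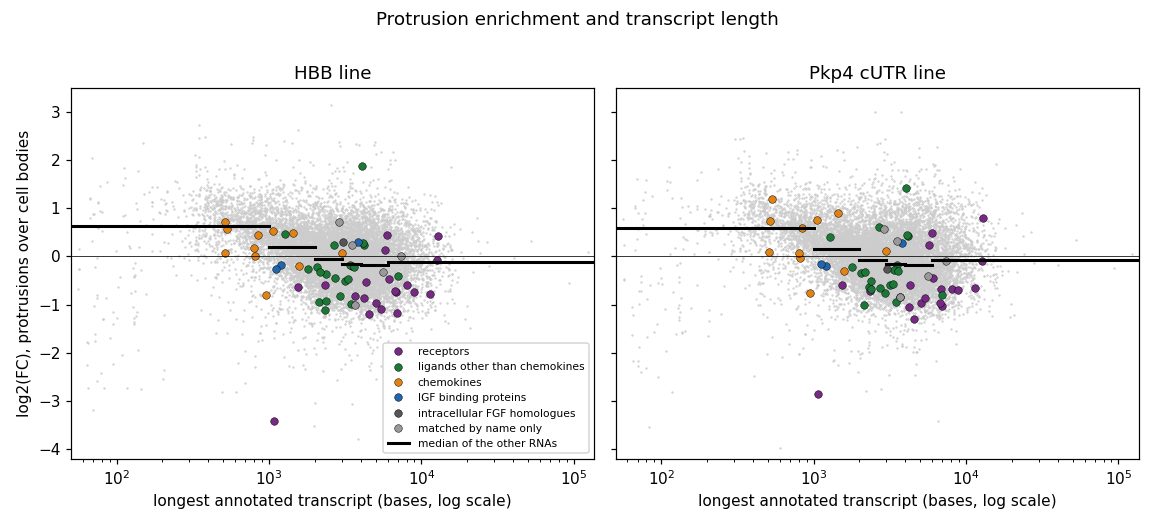
The log2(FC) of protrusions over cell bodies (y axis) is plotted against the longest annotated transcript of each RNA (x axis, bases, log scale), with the 61 RNAs coloured by class, the other RNAs in grey and their median in each of 6 length bins as a black line. In the HBB line (left) 43 and in the Pkp4 cUTR line (right) 44 of the 61 points lie below the line of their bin, and Gdf11 is the highest coloured point in each panel.

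Partners of these proteins were read from 5 lists of other pathway genes, to be set against 28.3% higher and 28.9% lower of all RNAs in HBB protrusions and 28.2% and 28.5% in Pkp4 cUTR protrusions. Of the TGF-β and BMP list 30 of 36 genes had a value, and 2 were higher and 16 lower in HBB protrusions, with a median of -0.43. The lowest were the latent TGF-β binding proteins Ltbp4 (-1.15 and -1.03 in the lines), Ltbp3 (-1.05 in the HBB line) and Ltbp2 (-1.04 in the HBB line), which tether TGF-β to the matrix. The type I receptor Acvr1 stood at -1.01 in the Pkp4 cUTR line, opposite to Bmpr1a. In the Wnt list, with 24 of 36 genes, 2 were higher and 11 lower in HBB protrusions, and 3 higher and 11 lower in Pkp4 cUTR protrusions. There Apc, the scaffold of the β-catenin destruction complex, was at 1.07 and 1.42, and the co-receptors Ror2 (-0.97 and -0.96) and Lrp5 (-0.83 and -0.99) were lower, like the Frizzled RNAs.

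Of the receptor tyrosine kinase list (33 of 36 genes) 8 were higher and 13 lower in HBB protrusions, not far from the shares of all RNAs, among the latter the insulin receptor substrate Irs2 (-1.54 and -2.17), the FGF receptor substrate Frs3 (-1.36 and -0.93) and the VEGF co-receptor Nrp2 (-0.96 and -0.94). Only 7 of 27 chemokine, endothelin and LPA receptors and processing enzymes had a value. None was higher and 4 were lower in HBB protrusions, with the scavenging receptor Ackr3 at -1.17 and -1.15 and the LPA receptor Lpar2 at -0.75 and -0.71. Of the NF-κB list (14 of 17 genes) none was higher and 8 were lower in each line, with the growth factor Csf1 at -0.97 and -0.89.

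The second question was whether the Pkp4 3′UTR changed the enrichment of these RNAs, measured as log2(Diff FC), the log2(FC) of the Pkp4 cUTR line minus that of the HBB line. At the p part of the study's cutoff, an unadjusted p under 0.1, Bmpr2 and Fgf7 were more enriched (2 of 61, or 3.28%, against 3.44% of all RNAs). Gdf11 was less enriched (1 of 61, or 1.64%, against 2.36%). The study also set a cutoff on log2(Diff FC) and classed only RNAs enriched more than 2-fold in control protrusions. Among these RNAs Gdf11 alone passed that 2-fold threshold in the HBB line, so the counts here are not those of the study's rule. After adjustment none of the 12900 RNAs passed in limma, with or without precision weights, while 300 of them and 2 of the 61 had an unadjusted p under 0.05. The median log2(Diff FC) was 0.02 for the 61 and 0.01 for all RNAs.

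Gdf11 was enriched in both lines, and its log2(Diff FC) was -0.44 ± 0.20 (limma, unadjusted p = 0.0414). In HBB protrusions replicate 3 was the highest at 4.91 and in HBB cell bodies replicate 4 the lowest at 2.25. Fgf7 had log2(Diff FC) of 0.38 ± 0.17 (limma, unadjusted p = 0.0349), with a difference between the lines that was larger in cell bodies. For Bmpr2 log2(Diff FC) was 0.38 ± 0.20 (limma, unadjusted p = 0.0754). It missed this threshold in 9 alternatives, 8 of them with 1 sample left out (unadjusted p of 0.109 to 0.181), namely HBB protrusions 1 or 3, HBB cell bodies 1, Pkp4 cUTR protrusions 2, 3 or 4 and Pkp4 cUTR cell bodies 2 or 3.

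The last comparison set the Pkp4 cUTR line against the HBB line within a fraction. Edn1 was higher in the Pkp4 cUTR line in both fractions, and Ccl2, Fgf7, Igfbp7, Wnt9a and Tgfb1 were lower in both. In cell bodies this made 1 of the 61, or 1.64%, higher (3.42% of all RNAs were) and 5, or 8.20%, lower (5.55% of all RNAs were). In protrusions 1, or 1.64%, was higher (2.89% of all RNAs were) and 6, or 9.84%, with Ccl7 added, were lower (4.26% of all RNAs were). No receptor passed in either fraction in limma-voom with all 16 samples, all 12900 RNAs and the authors' scaling. With quantile normalization the receptor Fzd2 passed as higher in Pkp4 cUTR cell bodies. The median difference of the 61 was -0.12 in cell bodies and -0.11 in protrusions, beside 0.00 and 0.01 for all RNAs. Sample by sample, 6 of the 61 lay wholly higher in Pkp4 cUTR cell bodies (837 of all 12900 RNAs, or 6.49%) and 9 of the 61 wholly lower (1046, or 8.11%). In protrusions 3 of the 61 lay wholly higher (814 of 12900, or 6.31%) and 8 of the 61 wholly lower (955, or 7.40%). RNAs higher in both fractions made up 1.66% of all RNAs and RNAs lower in both 3.13%. Without the cell bodies numbered 4, 1 was higher and 4 were lower in cell bodies (258 and 510 of all 12900 RNAs). Ccl7 was gained there (limma, adjusted p = 0.0438) and Wnt9a and Tgfb1 were lost. In protrusions 1 was then higher and 7 were lower (533 and 749 of 12900), with the receptor Fgfr1 gained (limma, adjusted p = 0.0431).

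Edn1 (chr13:42301476-42307990, plus strand) differed most. Its log2 CPM was 1.41, 1.20, 0.50 and 0.60 in HBB cell bodies and 2.43, 2.70, 2.19 and 2.25 in Pkp4 cUTR cell bodies. In protrusions it was 0.21, 0.43, -0.68 and -0.10 in the HBB line and 1.44, 1.68, 0.76 and 1.68 in the Pkp4 cUTR line. No Pkp4 cUTR sample fell within the range of the HBB samples of its fraction, on 11 to 171 reads per sample. The difference was 1.45 ± 0.21 (limma, adjusted p = 2.0e-04) in cell bodies and 1.40 ± 0.31 (adjusted p = 0.0106) in protrusions. The protease that releases the active peptide, Ece1, was lower in the Pkp4 cUTR line, at -0.66 and -0.53.

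Ccl2, the main monocyte attractant of fibroblasts (chr11:82035571-82037453, plus strand), had the smallest p of the 61 in both fractions. In HBB cell bodies it stood at 6.64, 6.49, 6.53 and 6.71 and in Pkp4 cUTR cell bodies at 5.79, 5.68, 5.67 and 6.01. The protrusions gave 6.53, 6.57, 6.59 and 6.75 in the HBB line and 5.70, 5.68, 5.87 and 5.78 in the Pkp4 cUTR line. All Pkp4 cUTR samples lay below all HBB samples, by -0.81 ± 0.08 (limma, adjusted p = 2.7e-06) in cell bodies and -0.85 ± 0.08 (adjusted p = 3.1e-06) in protrusions. Its neighbours on the chromosome differed less. Ccl7 (chr11:82045712-82047525, plus strand) stood at -0.27 ± 0.11 in cell bodies and -0.39 ± 0.12 in protrusions (limma, adjusted p = 0.156 and 0.0467), and the second call failed in 11 alternatives (adjusted p from limma of 0.0570 to 0.140), among them leaving out HBB protrusions 1, 3 or 4, HBB cell bodies 1, 2 or 3, Pkp4 cUTR protrusions 1, 2 or 4 or Pkp4 cUTR cell bodies 1. Ccl7 passed in both fractions without the cell bodies numbered 4 (limma, adjusted p = 0.0438 and 0.0059), and in protrusions with the replicate number as a block shared by the lines (adjusted p = 0.021). Ccl8 (chr11:82115185-82116799, plus strand) stood at 0.19 ± 0.19 and 0.21 ± 0.21 and passed in neither.

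Fgf7 (chr2:126034658-126091185, plus strand) had log2 CPM of 4.03, 3.94, 3.98 and 3.89 in HBB cell bodies and 3.35, 2.99, 3.02 and 3.36 in Pkp4 cUTR cell bodies. In protrusions the values were 4.05, 4.44, 3.95 and 4.34 and 3.62, 3.92, 3.71 and 3.93. All Pkp4 cUTR samples were lower, and the difference was -0.78 ± 0.12 (limma, adjusted p = 2.3e-04) in cell bodies and -0.41 ± 0.12 (adjusted p = 0.0417) in protrusions. The call in protrusions failed in 9 alternatives, 8 of them with 1 sample left out (limma, adjusted p = 0.0521 to 0.127), namely HBB protrusions 2 or 4, HBB cell bodies 1, 2 or 3, or Pkp4 cUTR protrusions 1, 2 or 3. Fgf7 passed in cell bodies and protrusions with the replicate number as a block shared by the lines (limma, adjusted p = 2.6e-04 and 0.0284). Igfbp7 (chr5:77349240-77408041, minus strand) stood at 6.97, 6.95, 6.92 and 6.93 in HBB cell bodies and 6.56, 6.46, 6.31 and 6.43 in Pkp4 cUTR cell bodies. Its protrusion values, 6.93, 6.81, 6.75 and 6.57 and 6.27, 6.34, 6.30 and 6.01, did not overlap either, with a narrower gap and a wider spread in the HBB line. The difference was -0.51 ± 0.08 (limma, adjusted p = 5.0e-04) in cell bodies and -0.53 ± 0.08 (adjusted p = 4.9e-04) in protrusions. The other IGF binding proteins did not pass, with values of -0.02 ± 0.09 and -0.04 ± 0.09 for Igfbp4 and -0.03 ± 0.10 and 0.07 ± 0.10 for Igfbp6.

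Wnt9a (chr11:59306928-59333552, plus strand) had log2 CPM of 3.59, 3.57, 3.63 and 3.78 in HBB and 3.21, 3.41, 3.32 and 3.13 in Pkp4 cUTR cell bodies, and of 3.25, 2.94, 3.23 and 3.27 and 2.80, 2.78, 2.45 and 2.72 in protrusions. Tgfb1 (chr7:25687002-25705077, plus strand) had 7.13, 7.19, 7.12 and 7.14 in HBB and 6.87, 6.95, 6.88 and 6.63 in Pkp4 cUTR cell bodies, and 6.91, 6.77, 6.90 and 6.73 and 6.71, 6.48, 6.45 and 6.41 in protrusions. The lines did not overlap in either fraction for either RNA, by a narrow margin for Tgfb1 in protrusions. Wnt9a differed by -0.37 ± 0.09 (limma, adjusted p = 0.0166) and -0.48 ± 0.11 (adjusted p = 0.0134), and Tgfb1 by -0.31 ± 0.08 (adjusted p = 0.017) and -0.32 ± 0.08 (adjusted p = 0.0187), in cell bodies and protrusions. Without the cell bodies numbered 4 the cell body values were -0.29 for Wnt9a and -0.24 for Tgfb1 and no longer passed (limma, adjusted p = 0.104 and 0.0839). Leaving out Pkp4 cUTR cell bodies 4 alone ended both calls (limma, adjusted p = 0.0532 for Wnt9a and 0.0574 for Tgfb1), Pkp4 cUTR cell bodies 1 that of Wnt9a (0.0574) and HBB cell bodies 2 that of Tgfb1 (0.0501). The protrusion call of Tgfb1 ended without any 1 of 5 samples, HBB protrusions 1 or 3 or Pkp4 cUTR protrusions 2, 3 or 4 (limma, adjusted p = 0.0538 to 0.0702), and that of Wnt9a without Pkp4 cUTR protrusions 3 (adjusted p = 0.0539). With the replicate number as a block shared by the lines and all samples, both RNAs passed in cell bodies and protrusions. Adjusted p from limma was then 0.0236 and 0.0115 for Wnt9a and 0.0081 and 0.0079 for Tgfb1.

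**Figure D4:**
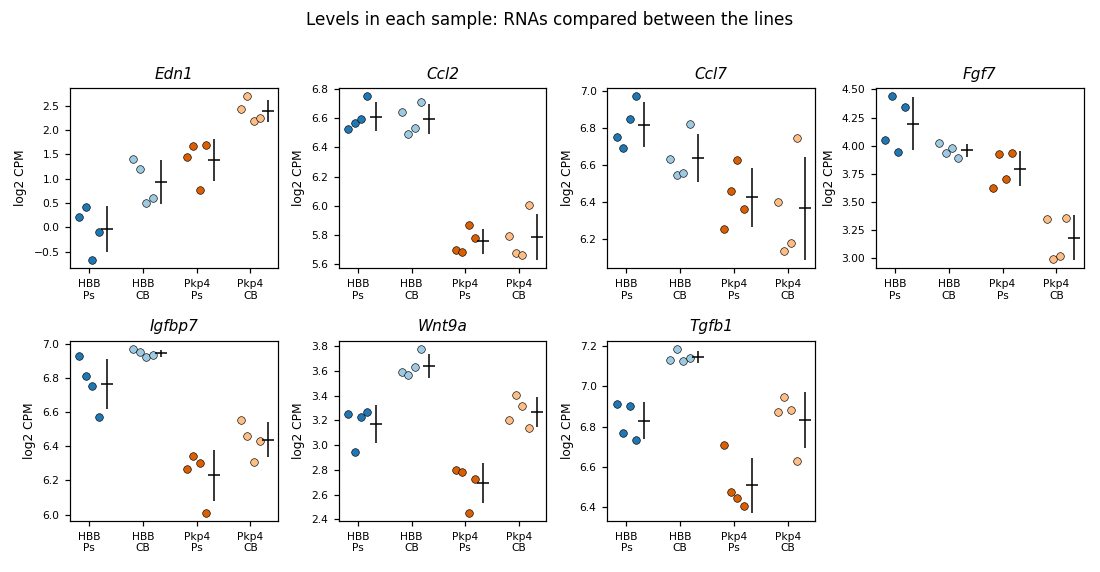
Log2 CPM (y axis, a separate scale in each panel) is plotted for every sample of the 4 groups (x axis, Ps for protrusions and CB for cell bodies) for the 7 RNAs that differed between the lines, with the mean ± SD of 4 samples beside the points. Edn1 lies higher and Ccl2, Fgf7, Igfbp7, Wnt9a and Tgfb1 lie lower in the Pkp4 cUTR line in both fractions, and Ccl7 overlaps between the lines in cell bodies.

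Samples of the lines with the same number varied together, and with the replicate number as a block shared by the lines 2 more RNAs passed. Ccl5, the chemokine RANTES, was lower in Pkp4 cUTR cell bodies (limma, adjusted p = 0.0676 without and 0.0482 with the block), on 2 to 17 reads per cell body sample. Pdgfa was lower in Pkp4 cUTR protrusions (limma, adjusted p = 0.095 without and 0.042 with the block). The differences between the lines had opposite signs in the fractions for 9 of the 61 RNAs, with a Pearson's r of 0.856 and a Spearman's rho of 0.795 between the fractions, which share no sample.

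Among the pathway partners the VEGF and semaphorin co-receptor Nrp1 was lower in the Pkp4 cUTR line, at -1.28 in cell bodies and -0.94 in protrusions. Ltbp1 was lower in both (-0.57 and -0.66), as was the Wnt transducer Dvl1 (-0.29 and -0.27). The LPA receptor Lpar1 was lower in protrusions (-0.63). In all, the TGF-β and BMP list had 0 higher and 5 lower of 30 in cell bodies and 1 and 2 in protrusions, and the receptor tyrosine kinase list 0 and 2 of 33, and 1 and 2. Over all RNAs 3.42% were higher and 5.55% lower in cell bodies, and 2.89% and 4.26% in protrusions, so that the receptor tyrosine kinase counts were near these shares. Markers of other cell types also moved: Cdh1 was higher in Pkp4 cUTR cell bodies (0.52) and Krt8 in Pkp4 cUTR protrusions (0.53), whereas the endothelial cadherin Cdh5 was lower in Pkp4 cUTR cell bodies (-1.21), at a mean log2 CPM of -1.36. The endothelial Pecam1 and the macrophage marker Cd68 passed in neither fraction. Of the fibroblast markers Prrx1 was higher in both (0.41 and 0.41) and Vim in cell bodies (0.28). Col1a1, Col1a2, Col3a1, Fn1, Pdgfrb, S100a4 and Twist1 passed in neither fraction, with values on both sides of 0. The part of these markers and partners in the differences of Edn1, Ccl2 and the others was not tested.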

How the data were processed

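RNA of 16 samples of NIH/3T3 cells, 4 for each fraction of each line, was sequenced from stranded libraries. The authors aligned reads to mm10 with STAR 2.4.2a, counted them with Rsubread and deposited log2 CPM of 12900 RNAs, normalized by limma-voom (limma 3.26.1). Whether counting used the strand is not given in the sources used here. Annotated genes of the opposite strand also overlap the spans of Fgf7 (Fam227b), Igfbp7 (Polr2b), Ccl2 (Gm17268) and Edn1 (Gm47118), among others. The reads behind each value were recovered (100% within 0.01 of a whole number, largest distance 0.00154; voom adds 0.5 reads) and fitted by limma-voom (limma 3.58.1, R 4.3.3) on the library sizes as scaled by the authors, with 1 mean per group over all 16 samples and no further filter. Adjusted p-values are Benjamini-Hochberg over all 12900 RNAs, with calls under 0.05. The study's threshold of enrichment (2-fold with unadjusted p under 0.05) was also used. Of its cutoffs for log2(Diff FC) only the p part (under 0.1) was used, over all RNAs.

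Samples were grouped by the line, fraction and replicate number in the labels. Between the lines, same-numbered samples deviated together, with correlations over 10154 RNAs of 0.331 to 0.628 in cell bodies and 0.196 to 0.392 in protrusions, so these numbers pair the samples. The labels give no origin for this pairing. Between protrusions and cell bodies of the HBB line same-numbered samples paired weakly at most, with a mean correlation of 0.178 against -0.062 for unlike numbers. In the Pkp4 cUTR line they did not pair (mean of -0.161 against 0.061). Values in every sample are given for up to 6 RNAs highest and 6 lowest in protrusions of both lines, up to 8 that differed between the lines in both fractions, and those past the threshold for log2(Diff FC). Ccl8, Fzd5 and others are described beside these. All 61 RNAs matched the GENCODE vM21 annotation. The RNAs and lists were chosen with earlier results of these data known. Of the listed pathway genes 1 is in the counts but is not reported here by its own values. The fits were tested on simulated reads. An analysis of protein sequences was not made here.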

Additional observations from a re-analysis of the deposited data

Results flagged for a closer look

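In 5 of 100 groups of 4 samples, for the 25 RNAs described sample by sample, 1 sample lay apart from the other 3 by a Dixon criterion that chance meets in about 5% of groups. These were the lowest values of Gdf11 in HBB cell body replicate 4 (2.25 log2 CPM), of Bmpr2 in Pkp4 cUTR protrusion replicate 1 (3.38), of Wnt9a in HBB protrusion replicate 2 (2.94), and of Pdgfrb (7.30) and Bmp1 (6.66), both in HBB protrusion replicate 3. Without HBB protrusion replicate 3 the calls of lower Pdgfrb and Bmp1 in HBB protrusions held. The enrichment of 2 RNAs differed between the lines at an unadjusted p under 0.05 for the interaction in limma, with log2(Diff FC) of 0.38 for Fgf7 and -0.44 for Gdf11, and neither passed after adjustment.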

How the results depend on the processing

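Each of the 95 calls made on the 61 RNAs in the 5 comparisons was recomputed under 8 alternatives and without each of the 16 samples, and 62 kept their call under every one. Library totals ended 16 of them, and 25 ended when at least 1 of the samples, taken singly, was left out. Direction changed only for Igfbp4, which with quantile normalization had log2(FC) of -0.17 in the HBB line and -0.19 in the Pkp4 cUTR line. Other calls that 1 sample ended were those of Fgfr1op in the Pkp4 cUTR line and Tgfbrap1 in the HBB line (limma, adjusted p = 0.0503 to 0.144 and 0.0501 to 0.117). With library totals 2 of the 61 RNAs were higher in HBB protrusions (1940 of all 12900 RNAs) and 5 in Pkp4 cUTR protrusions (1797 of 12900). At 2-fold 15 and 14 were then lower in these lines and 1 was higher in the Pkp4 cUTR line. The median of all RNAs also fell under this scaling, as given above. All RNAs were not counted at 2-fold under the alternatives, so the 2-fold counts have no share to be set against. With library totals 1 of the 61 was more enriched in the Pkp4 cUTR line (260 of all 12900 RNAs). With quantile normalization 8 were higher in Pkp4 cUTR protrusions (3503 of all 12900), and 2 (Edn1 and Fzd2) higher in Pkp4 cUTR cell bodies (509 of 12900). On log2(CPM + 1), which shrinks the change of low RNAs by construction, 3 were lower at 2-fold in each line and 1 higher at 2-fold in the Pkp4 cUTR line, and over RNAs with a mean log2 CPM above 1, which leaves out Ccl5, also 1. Without the cell bodies numbered 4 of both lines 2 were less enriched in the Pkp4 cUTR line (280 of 12900). Leaving out 1 sample at a time gave 1 to 3 more enriched (302 to 644 of all 12900) and 1 to 2 less enriched (256 to 404) in the Pkp4 cUTR line. At 2-fold 1 to 3 were higher and 2 to 7 lower in Pkp4 cUTR protrusions. Between the protrusions of the lines 1 to 2 were higher (185 to 468 of 12900) and 3 to 7 lower (360 to 668) in the Pkp4 cUTR line. The 3 were reached without Pkp4 cUTR protrusion replicate 2 or 3 (374 and 404 of 12900). The cause of these shifts was not tested unless named. A replicate block within each line, where the numbers paired weakly at most, left 8 RNAs higher and 24 lower in HBB protrusions (3582 and 3710 of all 12900). In Pkp4 cUTR protrusions it left 12 higher and 29 lower (3571 and 3641 of 12900). With the replicate block shared by the lines Igfbp6 was no longer lower in HBB protrusions (limma, adjusted p = 0.0507), Ccl5 and Pdgfa were gained as given above, Igfbp7 was gained in HBB protrusions, and no other call changed. Depth limits the RNAs with samples at or under the floor of 3 reads, among them Tgfbr3l, Gdf5, Wnt4 and Ccl5. A planned description by protein sequence was not run.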
